A study of Danio rerio with 4 samples.

Results

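The genes described here are the ribosomal protein genes of the zebrafish, followed in WT and KDM5A-KO embryos. They were chosen by name alone: protein-coding genes whose symbol starts with rps or rpl and goes on with a number, with p and a number, or with a. Kinases of the rps6k family were left out. The rule found 82 of the 26812 genes in the table, of which 34 carry names of the small subunit and 48 names of the large subunit. Their 82 Ensembl IDs were all found in a separate table of gene symbols, where 10 carried the same symbol. Most of the others differed only by capital letters, but some carried another symbol, such as RPS4Y2 for rps4x and RPSA2 for rpsa. Of the 82, 5 are named as a relative or a binding partner of a ribosomal protein: rpl22l1, rpl7l1, rps26l, rplp2l and rps19bp1. The other 77 are called core genes below. All 82 reached an FPKM of at least 1 in some library, and 81 did so in every library.

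RNA of whole embryos was sequenced in 4 libraries, 1 each of KDM5A-KO and WT embryos at 24 hours post-fertilization (hpf) and of KDM5A-KO and WT embryos at 48 hpf. KDM5A is a demethylase that takes methyl groups off lysine 4 of histone H3. The labels describe the KDM5A-KO group as made with CRISPR/Cas9 and bred from KO fish kept apart from WT fish, whereas the study's methods describe embryos injected with an sgRNA and a Cas9 plasmid. The titles of these samples carry the abbreviation mo, which no source explains. How the KDM5A-KO embryos were made, and whether they were mosaic, is therefore not settled. The methods give 40 to 50 pooled embryos per group for 24 hpf only. All groups were whole embryos with no treatment beyond the knockout. In such bulk samples, fewer cells of a type and less RNA per cell cannot be told apart. With 1 library for each group, differences have no replicate error behind them, and p-values are not given. Ratios of FPKM carry 95% Clopper-Pearson (exact) intervals for the counting error alone, as chance in the reads and nothing else enters them. They rest on reads recovered from the FPKM values, where FPKM is the number of fragments of a gene divided by its length and by the size of the library.

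Ribosomal proteins are the protein component of the ribosome. A small subunit reads the messenger RNA, and a large subunit joins the amino acids and lets the growing chain out through a tunnel. In vertebrates the proteins are needed in about equal numbers, and most of their mRNAs begin with a stretch of pyrimidines that ties their translation to growth signals. The genes are also known in zebrafish because loss of single ribosomal proteins disturbs early development, and in people because mutations in several of them cause Diamond-Blackfan anemia.

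Some features of the libraries bear on every value. Column names consist of C or K followed by 1 or 2, and they were taken to mean WT or KDM5A-KO followed by 24 or 48 hpf. That meaning is inferred and is stated in no source. Early somite genes, which fade as somites finish forming, were higher at the age read as 24 hpf for 8 of 9 genes, in KDM5A-KO and in WT. The targeted gene KDM5A had 20.3 FPKM in the KDM5A-KO library and 13.8 FPKM in the WT library at 24 hpf, and 16.3 FPKM in KDM5A-KO and 18.1 FPKM in WT at 48 hpf. The KDM5A mRNA thus does not bear out the genotype at 24 hpf, and at 48 hpf its FPKM ratio was 0.902 (0.823 to 0.987). A value per gene cannot show whether the gene was edited. The names of the KDM5A-KO libraries follow the labels only. The totals were 14724748 and 7441797 reads for the KDM5A-KO and WT libraries at 24 hpf, and 15922314 and 15525056 reads at 48 hpf. The WT library of 24 hpf stood apart in a further way. Genes of ribosomal RNA and its surrounding locus, 234 in number, held 12.5% of its reads, against 0.555% in the KDM5A-KO library of the same age and 0.341% and 0.482% in KDM5A-KO and WT at 48 hpf. A larger rRNA share in the total leaves less for all other genes of a library. Dividing each library by its median ratio to the others, over 14596 genes, shifted all log2 ratios of KDM5A-KO to WT by −0.27 at 24 hpf and by −0.01 at 48 hpf, and ratios of 48 to 24 hpf by 0.15 in KDM5A-KO and by −0.10 in WT.

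Levels of tissue marker genes also differed between the libraries. At 24 hpf, 7 of 7 lens genes were lower in KDM5A-KO (summed level 44.6 FPKM, against 88.1 FPKM in WT), 5 of 5 heart genes were higher (83.3 FPKM, against 30.8 FPKM in WT) and 10 of 12 skeletal muscle genes were lower (5889 FPKM, against 6705 FPKM in WT). At 48 hpf, 7 of 7 lens genes were lower (1106 FPKM in KDM5A-KO, against 2584 FPKM in WT), 4 of 5 heart genes were higher (45.9 FPKM, against 24.1 FPKM in WT) and 12 of 12 muscle genes were higher (32149 FPKM, against 25384 FPKM in WT). Of the erythroid genes, 6 of 7 were higher in KDM5A-KO at 24 hpf (1243 FPKM, against 808 FPKM in WT) and 5 of 7 at 48 hpf (1438 FPKM, against 1564 FPKM in WT). Of all 19332 genes that reached 1 FPKM in some library, 13447 were higher at 24 hpf and 8958 at 48 hpf. After division by the median ratios, 0 of 12 muscle genes were higher at 24 hpf and 11 of 12 at 48 hpf. The numbers of lens, heart and erythroid genes that were higher stayed the same. None of the lens, heart, muscle or erythroid genes in the table was at 0 in any library. Their part in the ribosomal protein values was not tested.

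Ribosomal protein genes were among the most highly expressed genes of the embryos. They made up 16 of the 50 genes with the highest mean FPKM, 44 of the top 100 and 71 of the top 200. The median member had 922 FPKM in KDM5A-KO and 901 FPKM in WT at 24 hpf, and 737 FPKM in KDM5A-KO and 779 FPKM in WT at 48 hpf. The order of the members by level differed little between libraries. Across the 82 members, the log2 levels in KDM5A-KO and WT had a Pearson r of 0.99 and a Spearman rho of 0.97 at 24 hpf, and an r of 0.98 and a rho of 0.97 at 48 hpf. Between 48 and 24 hpf, r was 0.99 and rho 0.99 in KDM5A-KO, and r was 0.98 and rho 0.98 in WT. These are correlations across genes, which are not replicates, and both libraries of a pair share gene lengths and the way reads were assigned.

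The member with the highest level in each library was rplp0, which encodes the base of the stalk of the large subunit. It had 3584 FPKM in KDM5A-KO and 3165 FPKM in WT at 24 hpf, and 2745 FPKM in KDM5A-KO and 2606 FPKM in WT at 48 hpf. The second was rps2, a protein of the small subunit near the path of the mRNA, with 2369 FPKM in KDM5A-KO and 2297 FPKM in WT at 24 hpf and 1805 FPKM in KDM5A-KO and 1925 FPKM in WT at 48 hpf. The highest member had 3.35 to 3.89 times the FPKM of the median member of its library. At the low end, 5 members had a mean level under 100 FPKM, among them rps27.2, rpl7l1, rps19bp1 and a second gene listed as rpl37 (ENSDARG00000076360). The last had 10.3 FPKM in KDM5A-KO and 6.38 FPKM in WT at 24 hpf, and 5.64 FPKM in KDM5A-KO and 5.21 FPKM in WT at 48 hpf. The symbol table lists the second rpl37 under COA1, the name of an unrelated gene of mitochondria, so its identity is uncertain.

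**Figure D1:**
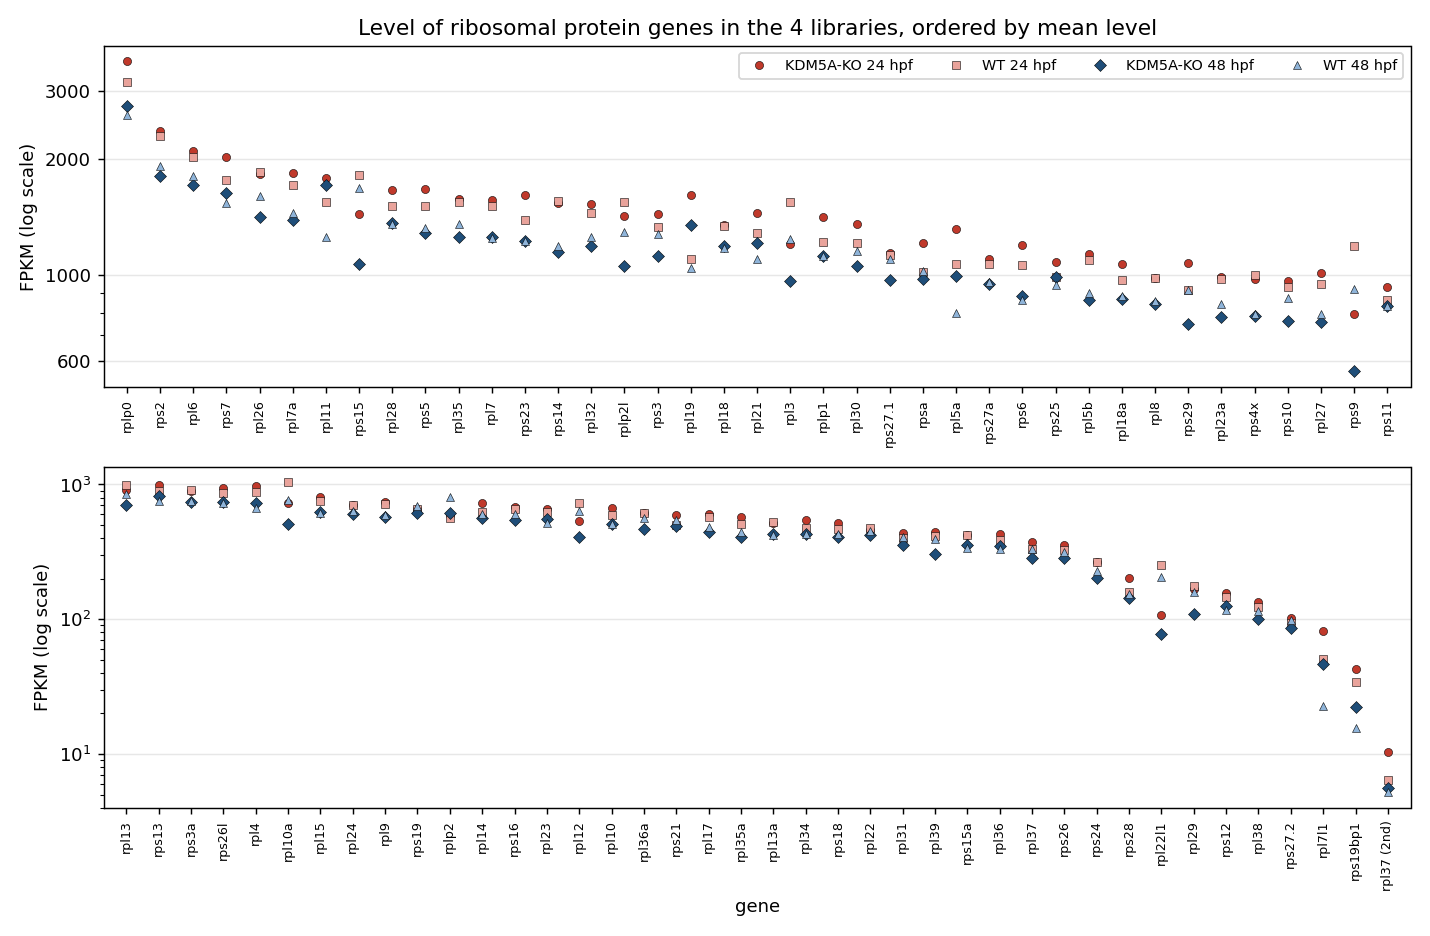
FPKM (log scale, 1 point per library) of the ribosomal protein genes, ordered by mean level over both rows of the plot, without 3 genes that are not reported here. Most genes lie above 100 FPKM, with rplp0 at the top and the second rpl37 at the bottom, and the 48 hpf points mostly lie under the 24 hpf points.

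The share of all expression held by the 82 genes depended on how the WT library of 24 hpf was counted. Of the summed FPKM over all genes, they held 16.1% in KDM5A-KO and 12.8% in WT at 24 hpf, and 12.8% in KDM5A-KO and 13.5% in WT at 48 hpf. The genes of the rRNA locus held 27.7% of the summed FPKM of the WT library of 24 hpf and at most 1.20% of that of any other library. Without these genes the order at 24 hpf turned round, with 16.3% in KDM5A-KO and 17.7% in WT, while at 48 hpf the shares were 12.9% in KDM5A-KO and 13.6% in WT. The split between the subunits hardly moved. Small-subunit genes held 39.5% of the members' summed FPKM in KDM5A-KO and 39.5% in WT at 24 hpf, and 39.3% in KDM5A-KO and 40.2% in WT at 48 hpf.

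**Figure D2:**
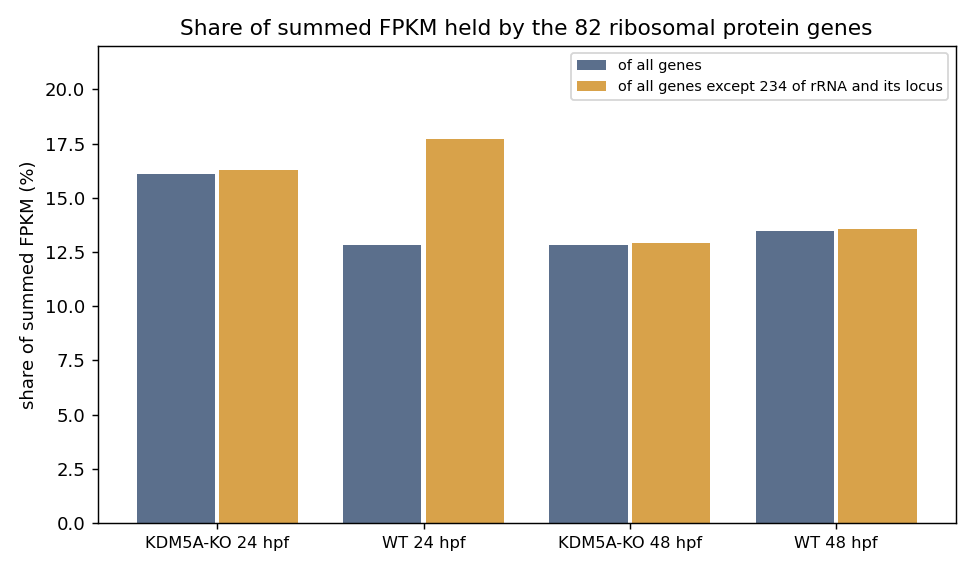
Share (%) of the summed FPKM of a library held by the 82 ribosomal protein genes, over all genes (left bar of a pair) and over all genes but the 234 of the rRNA locus (right bar). In the WT library of 24 hpf the share is 12.8% over all genes and 17.7% without the rRNA locus, and in the other 3 libraries the bars of a pair are nearly equal.

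Compared with WT embryos, KDM5A-KO embryos showed small differences in most ribosomal protein genes. At 24 hpf the median log2 ratio, taken as log2 of FPKM plus 1 in KDM5A-KO over FPKM plus 1 in WT, was 0.10, with 65 members higher and 17 lower. Over the 19332 expressed genes, those that reached 1 FPKM in some library, the median was 0.19, with 13447 higher and 5761 lower. After division by the median ratios the members' median was −0.17, and 7 members and 9282 of the 19332 genes were higher. With the rRNA locus left out of the totals the members' median was −0.09. The direction of the whole group at 24 hpf was thus set by the scaling, which changed the sign of 58 of 82 members. At 48 hpf the members had a median of −0.07, with 26 members higher and 56 lower. Over the 19332 genes it was −0.03, with 8958 higher and 10217 lower. Rescaling gave the members a median of −0.08 and changed the sign of 3 of them. The subunits behaved alike. Their medians at 24 hpf were 0.12 for the small and 0.08 for the large subunit, and those at 48 hpf were −0.08 for the small and −0.07 for the large subunit.

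Few members passed a 2-fold threshold, the fold part of the rule that the study used. The study also set a cutoff on an adjusted p-value, which was not applied here, so the counts are not comparable with its calls. At 24 hpf no member was at least 2-fold higher in KDM5A-KO, where 3.77% of all genes were, and only rpl22l1 was at least 2-fold lower, where 1.83% of all genes were. At 48 hpf rpl7l1 was at least 2-fold higher (background 3.55%) and rpl22l1 at least 2-fold lower (background 4.84%). At a 1.5-fold threshold, 2 members were higher at 24 hpf, rpl7l1 and the second rpl37 (background 15.4%), and 2 were lower, rpl22l1 and rps9 (background 4.35%). At 48 hpf 1 member, rpl7l1, was at least 1.5-fold higher (background 10.4%), and 4 were at least 1.5-fold lower, namely rpl22l1, rps9, rps15 and rpl12 (background 14.7%). In each of these directions the share of the 82 members past the threshold was below the background, in the values as deposited. The 1.5-fold calls at 24 hpf depended on the scaling. After rescaling, the log2 ratios of rpl7l1 (0.40) and the second rpl37 (0.38) fell short of 1.5-fold. Those of rpl10a (−0.78), rpl12 (−0.72), rpl3 (−0.63) and rps15 (−0.60) were then past 1.5-fold lower, as were rpl22l1 and rps9. A 1.5-fold background after rescaling was not computed.

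**Figure D3:**
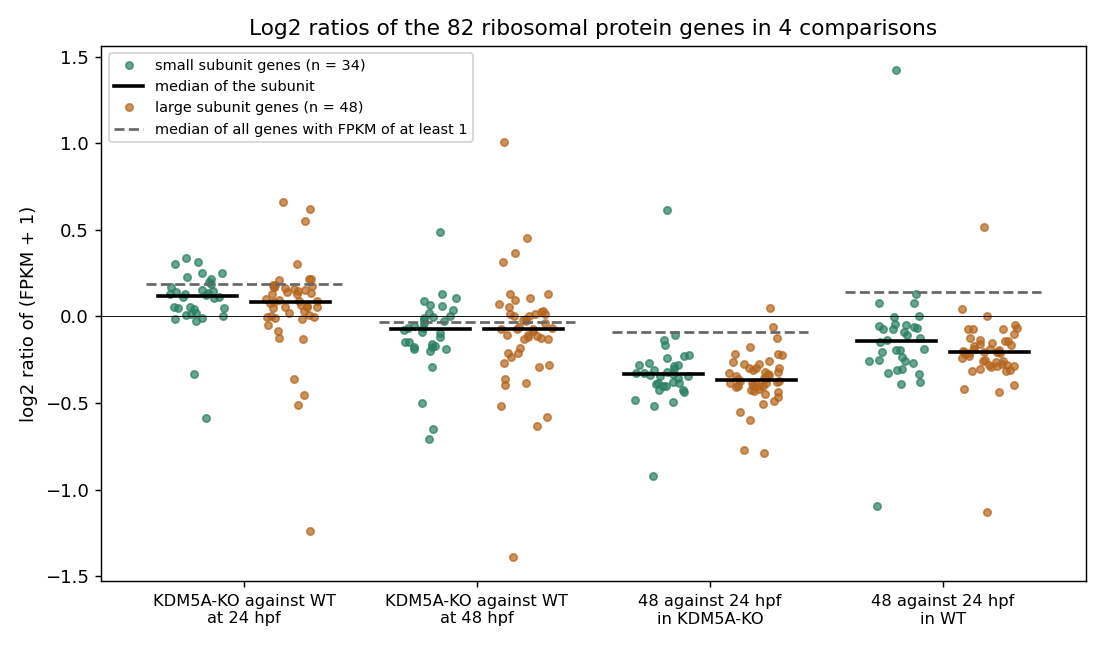
Log2 ratio of FPKM plus 1 of each ribosomal protein gene (1 point per gene, small subunit left and large subunit right of each comparison) in the 4 comparisons, with the median of each subunit (black line) and of all 19332 expressed genes (dashed line). The medians of both subunits lie below the dashed line in every comparison, and rpl22l1 is the lowest point at 24 and at 48 hpf.

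The core genes kept close together. At 24 hpf the SD of their log2 ratios of KDM5A-KO to WT was 0.19 over the 77 genes, against 0.79 over 317 other genes whose mean lay between 133 and 1688 FPKM, the range of the core genes without their extremes. At 48 hpf it was 0.21, against 0.59. Of the core genes, 70 (90.9%) lay within 0.25 of the core median at 24 hpf, and 65 (84.4%) at 48 hpf. Of the other genes, 53.3% lay within 0.25 of their own median at 24 hpf and 47.9% at 48 hpf. A small spread was not particular to the core genes. Over 72 genes for ribosomal proteins of mitochondria the SD was 0.20 at 24 hpf and 0.25 at 48 hpf. For 15 genes of DNA replication and cell division it was 0.21 and 0.23. In 31 translation genes outside the naming rule it was larger, 0.31 and 0.46. The distance of a member from the core median does not depend on the scaling of the libraries, apart from the pseudocount, and it is used below to name the members that stood out.

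At the 2 ages the KDM5A-KO and WT libraries are separate, so the ratios of 24 hpf and of 48 hpf share no library. Across the 82 members the ratios had a Pearson r of 0.80 and a Spearman rho of 0.48. Without the farthest members, rpl22l1 and rpl7l1, r was 0.67 over 80 genes. Over the 77 genes with a mean of at least 100 FPKM, r was 0.83. Among these 77, r fell to 0.30 and rho to 0.25 over 68 genes without several members far from the core median. Those left out were rpl22l1, rps9, rpl10a, rpl12, rpl3, rps15, rpl19, rpl5a and rpl11. The genes left out here and above were picked from these same ratios, so a lower r was built in. It does not measure how well the remaining genes agree between the ages. The choice was also not complete, as rpl29, rplp2 and rpl39, more than 0.25 below the core median at 48 hpf, were kept. These correlations are descriptions across genes, which share lengths and counting in all libraries. Length itself had little relation to the ratio, with an r of −0.04 (rho −0.14) at 24 hpf and 0.05 (rho 0.04) at 48 hpf over 77 genes. For the mean level of these genes, r was 0.16 (rho 0.05) at 24 hpf and 0.31 (rho 0.24) at 48 hpf. By sign, 25 members were higher in KDM5A-KO at both ages, 16 were lower at both, 40 were higher at 24 hpf and lower at 48 hpf, and 1 was the other way round. After rescaling, 5 were higher at both, 57 lower at both, 2 higher at 24 hpf and lower at 48 hpf, and 18 the other way round. Of all 19332 genes, 13447 were higher at 24 hpf and 10217 lower at 48 hpf as deposited. The joint classes were not counted over all genes, so the members' counts have no background and show no pattern particular to them.

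**Figure D4:**
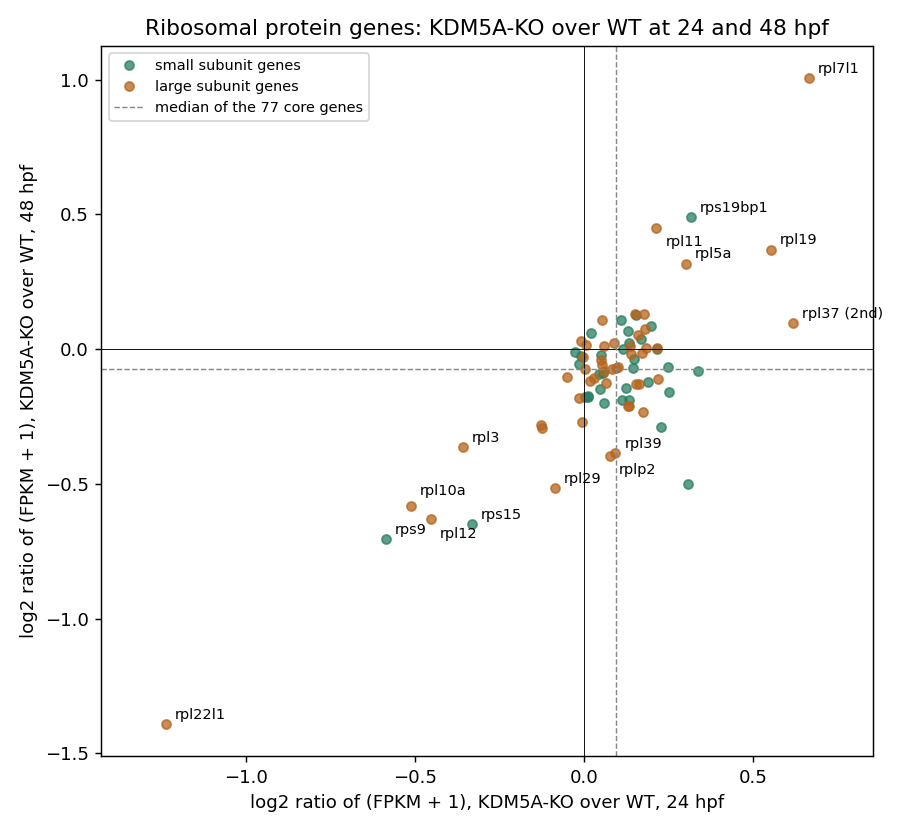
Log2 ratio of FPKM plus 1 in KDM5A-KO over WT at 24 hpf (x) and at 48 hpf (y), 1 point per ribosomal protein gene, with the medians of the 77 core genes as dashed lines. Genes more than 0.25 from the core median at either age are named, except 1 that is not reported here, and rpl22l1 (−1.24 and −1.39) and rpl7l1 (0.66 and 1.00) are farthest from the cloud.

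Relative to the core median, 6 members were lower by more than 0.25 on the log2 scale at both ages: rpl22l1, rps9, rpl10a, rpl12, rpl3 and rps15. These were also the 6 members whose levels in both KDM5A-KO libraries were below those in both WT libraries, as was the case for 5.88% of all genes. After rescaling, 19 members met this condition, the 6 among them, as did 11.8% of all genes. The rpl22l1 gene (ENSDARG00000010244) stood farthest from the rest. It encodes a paralog of Rpl22, a protein of the large subunit, and in mammals each member of this pair can act on the expression of the other. Its level was 107 FPKM in KDM5A-KO, from 1242 reads, and 254 FPKM in WT, from 1488 reads, at 24 hpf. At 48 hpf it was 77.5 FPKM in KDM5A-KO, from 971 reads, and 205 FPKM in WT, from 2502 reads. The 2 KDM5A-KO libraries were thus low and the 2 WT libraries high, with no overlap. The FPKM ratio was 0.422 (95% interval 0.391 to 0.455) at 24 hpf and 0.378 (0.351 to 0.408) at 48 hpf. The log2 ratio was −1.24 at 24 hpf, or −1.51 after rescaling, and −1.39 at 48 hpf. Its paralog rpl22 differed little as deposited. It had 460 FPKM in KDM5A-KO and 476 FPKM in WT at 24 hpf, and 421 FPKM in KDM5A-KO and 452 FPKM in WT at 48 hpf. After rescaling the log2 ratio of rpl22 was −0.32 at 24 hpf and −0.12 at 48 hpf. Of the FPKM of the pair, rpl22l1 therefore held 18.9% in KDM5A-KO and 34.8% in WT at 24 hpf, and 15.6% in KDM5A-KO and 31.2% in WT at 48 hpf. These shares are ratios within a library and do not depend on its scaling.

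The rps9 gene (ENSDARG00000011405), which encodes a protein of the small subunit, was the core gene with the lowest ratio at both ages. It had 795 FPKM in KDM5A-KO and 1194 FPKM in WT at 24 hpf, and 563 FPKM in KDM5A-KO and 919 FPKM in WT at 48 hpf. The FPKM ratio was 0.666 (0.649 to 0.682) at 24 hpf and 0.613 (0.598 to 0.627) at 48 hpf. The difference had the same direction under both other scalings, with a log2 ratio of −0.86 at 24 hpf and −0.72 at 48 hpf after rescaling.

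In the nematode Caenorhabditis elegans, the genes for the large-subunit proteins L3, L7a, L10a and L12 make a share of spliced mRNAs that are destroyed by nonsense-mediated decay. Of their zebrafish counterparts, looked at after the values were seen, rpl3, rpl10a and rpl12 were among the low members, and rpl7a was near the core median, with log2 ratios of 0.10 at 24 hpf and −0.07 at 48 hpf. The rpl10a gene (ENSDARG00000042905) had 728 FPKM in KDM5A-KO and 1039 FPKM in WT at 24 hpf, and 511 FPKM in KDM5A-KO and 766 FPKM in WT at 48 hpf. For rpl12 (ENSDARG00000006691), part of the base of the stalk, the levels were 535 FPKM in KDM5A-KO and 733 FPKM in WT at 24 hpf, and 409 FPKM in KDM5A-KO and 634 FPKM in WT at 48 hpf. The log2 ratios of rpl10a were −0.51 at 24 hpf and −0.58 at 48 hpf, and those of rpl12 were −0.45 at 24 hpf and −0.63 at 48 hpf. The rpl3 gene (ENSDARG00000003599), whose protein lies near the site of peptide bond formation, had 1206 FPKM in KDM5A-KO and 1546 FPKM in WT at 24 hpf, and 967 FPKM in KDM5A-KO and 1245 FPKM in WT at 48 hpf. Its log2 ratio was −0.36 at both ages as deposited. After rescaling, rpl3 had −0.63 at 24 hpf and −0.38 at 48 hpf. The rescaled log2 ratios at 24 and 48 hpf were −0.78 and −0.59 for rpl10a, and −0.72 and −0.64 for rpl12. Which age had the larger difference thus depended on the scaling for rpl10a and rpl12. The other low members, rpl22l1, rps9 and rps15, are not among the genes named for the nematode. The deposited values are per gene, so isoforms were not analysed here, and a part of such splicing in these values was not tested.

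For rps15 (ENSDARG00000070849), a protein of the head of the small subunit, the size of the difference at 24 hpf depended on the scaling, as for the other low members. The gene had 1442 FPKM in KDM5A-KO and 1817 FPKM in WT at 24 hpf, and 1072 FPKM in KDM5A-KO and 1684 FPKM in WT at 48 hpf. The FPKM ratio was 0.794 (0.770 to 0.818) at 24 hpf and 0.637 (0.620 to 0.655) at 48 hpf. After rescaling the log2 ratios were close, −0.60 at 24 hpf and −0.66 at 48 hpf. The 6 low members together summed to 4813 FPKM in KDM5A-KO and 6584 FPKM in WT at 24 hpf, and to 3600 FPKM in KDM5A-KO and 5453 FPKM in WT at 48 hpf.

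On the high side, rpl19 and rpl7l1 stood more than 0.25 above the core median at both ages. The rpl19 gene (ENSDARG00000013307) encodes a protein of the large subunit that reaches across to the small subunit. It had 1614 FPKM in KDM5A-KO and 1101 FPKM in WT at 24 hpf, and 1351 FPKM in KDM5A-KO and 1046 FPKM in WT at 48 hpf. Both KDM5A-KO libraries were above both WT libraries. The FPKM ratio was 1.47 at 24 hpf, with an interval that started at 1.43, and 1.29 (1.26 to 1.32) at 48 hpf, and the log2 ratio stayed above 0 after rescaling, at 0.28 and 0.36. Together with rpl11, rpl19 was 1 of 2 members whose KDM5A-KO libraries were both above both WT libraries, against 18.9% of all genes. After rescaling, rpl19 was the only 1 left, against 12.9% of all genes.

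The rpl7l1 gene (ENSDARG00000042864) encodes a relative of Rpl7 that in people is found in precursors of the large subunit rather than in the finished ribosome. Its levels were low for the group, with 81.1 FPKM in KDM5A-KO and 50.9 FPKM in WT at 24 hpf, and 46.5 FPKM in KDM5A-KO and 22.7 FPKM in WT at 48 hpf. The KDM5A-KO library was the higher at each age, but the KDM5A-KO level at 48 hpf was below the WT level at 24 hpf, so the groups overlapped across ages. The FPKM ratio was 1.60 (1.47 to 1.74) at 24 hpf and 2.05 (1.87 to 2.25) at 48 hpf. After rescaling the log2 ratio of rpl7l1 was 0.40 at 24 hpf and 0.99 at 48 hpf. Of the FPKM it shared with rpl7, rpl7l1 held 4.91% in KDM5A-KO and 3.26% in WT at 24 hpf, and 3.56% in KDM5A-KO and 1.78% in WT at 48 hpf. A second gene outside the ribosome itself, rps19bp1, encodes a protein that binds Rps19. It had 43.1 FPKM in KDM5A-KO and 34.4 FPKM in WT at 24 hpf, and 22.3 FPKM in KDM5A-KO and 15.6 FPKM in WT at 48 hpf, an FPKM ratio of 1.25 (1.09 to 1.43) at 24 hpf and 1.43 (1.23 to 1.67) at 48 hpf. The 24 hpf log2 ratio of this gene, 0.32, was 0.05 after rescaling.

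**Figure D5:**
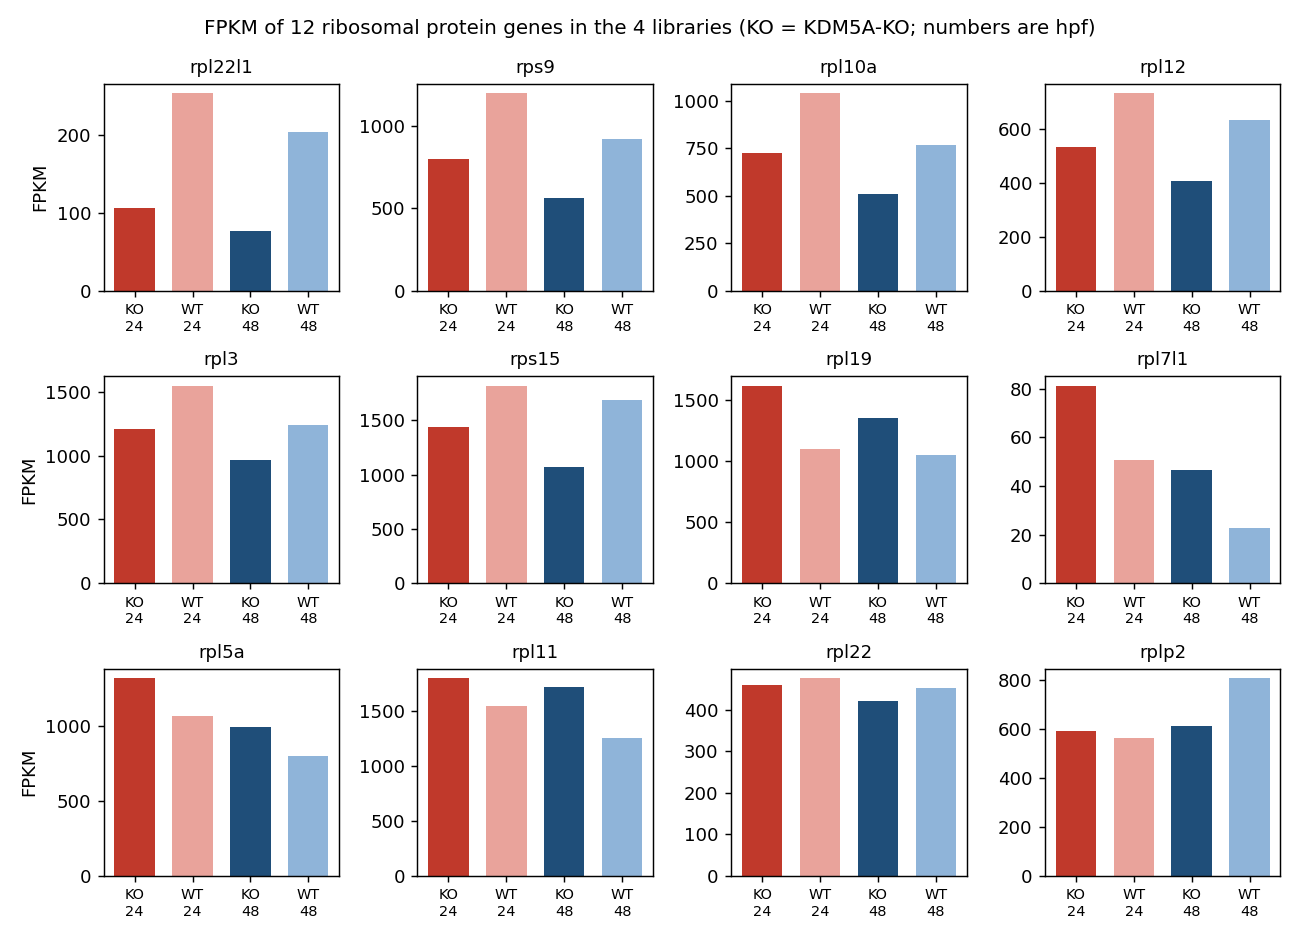
FPKM (bars from 0, 1 library each, with a separate y axis per gene) of 12 ribosomal protein genes in KDM5A-KO and WT at 24 hpf and at 48 hpf. In the 6 genes from rpl22l1 to rps15 both KDM5A-KO bars are lower than both WT bars, while rpl19 shows the opposite order. In these values, which are as deposited and not rescaled, rpl22 is nearly level between genotypes.

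The proteins Rpl5 and Rpl11 bind the smallest rRNA of the large subunit before they join the ribosome. The zebrafish has a pair of rpl5 genes. The rpl5a gene had 1319 FPKM in KDM5A-KO and 1071 FPKM in WT at 24 hpf, and 997 FPKM in KDM5A-KO and 801 FPKM in WT at 48 hpf. The rpl5b gene had 1138 FPKM in KDM5A-KO and 1097 FPKM in WT at 24 hpf, and 862 FPKM in KDM5A-KO and 899 FPKM in WT at 48 hpf. The copies thus differed in their ratio. Of the FPKM of the pair, rpl5a held 53.7% in KDM5A-KO and 49.4% in WT at 24 hpf, and 53.6% in KDM5A-KO and 47.1% in WT at 48 hpf. The rpl11 gene had 1792 FPKM in KDM5A-KO and 1546 FPKM in WT at 24 hpf, and 1715 FPKM in KDM5A-KO and 1255 FPKM in WT at 48 hpf. Its FPKM ratio was 1.16 (1.13 to 1.19) at 24 hpf and 1.37 (1.34 to 1.40) at 48 hpf, the largest ratio of any core gene at 48 hpf. After rescaling the log2 ratio of rpl11 was −0.06 at 24 hpf and 0.44 at 48 hpf, so that its direction at 24 hpf depended on the scaling. After rescaling the log2 ratio at 24 hpf was 0.03 for rpl5a and −0.22 for rpl5b. As deposited, the 3 genes summed to 4249 FPKM in KDM5A-KO and 3714 FPKM in WT at 24 hpf, and to 3574 FPKM in KDM5A-KO and 2954 FPKM in WT at 48 hpf. The direction of the sum at 24 hpf thus also depended on the scaling.

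The stalk of the large subunit, made of Rplp0, Rplp1 and Rplp2, calls in the factors that drive translation. For rplp0, whose levels are given above, the log2 ratio was 0.18 at 24 hpf and 0.07 at 48 hpf. The log2 ratio of rplp1 was 0.21 at 24 hpf and 0.00 at 48 hpf. After rescaling the log2 ratio at 24 hpf was −0.09 for rplp0, −0.06 for rplp1 and −0.19 for rplp2, so their direction at 24 hpf depended on the scaling. The rplp2 gene stood apart at 48 hpf. It had 594 FPKM in KDM5A-KO and 563 FPKM in WT at 24 hpf, and 613 FPKM in KDM5A-KO and 807 FPKM in WT at 48 hpf, where the FPKM ratio was 0.759 (0.729 to 0.791). The high value was that of the WT library of 48 hpf. The relative rplp2l had 1423 FPKM in KDM5A-KO and 1552 FPKM in WT at 24 hpf, and 1057 FPKM in KDM5A-KO and 1293 FPKM in WT at 48 hpf. It held 70.6% of the pair's FPKM in KDM5A-KO and 73.4% in WT at 24 hpf, and 63.3% in KDM5A-KO and 61.6% in WT at 48 hpf.

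Small-subunit genes of known roles mostly stayed near the core median. The rps3 gene encodes a protein at the entry of the mRNA channel that is also known in DNA repair. It had 1442 FPKM in KDM5A-KO and 1335 FPKM in WT at 24 hpf, and 1125 FPKM in KDM5A-KO and 1282 FPKM in WT at 48 hpf. The rps6 gene, whose protein is phosphorylated in response to growth signals, had 1196 FPKM in KDM5A-KO and 1065 FPKM in WT at 24 hpf, and 884 FPKM in KDM5A-KO and 861 FPKM in WT at 48 hpf. The rps19 gene is the one most often mutated in Diamond-Blackfan anemia in people. As deposited it was nearly level between genotypes at 24 hpf, with a log2 ratio of 0.01, and had a log2 ratio of −0.17 at 48 hpf. After rescaling its log2 ratio was −0.26 at 24 hpf and −0.19 at 48 hpf. For rps27a, which encodes a fusion of ubiquitin and a ribosomal protein, the log2 ratio was 0.05 at 24 hpf and −0.02 at 48 hpf. For rps7, a highly expressed gene of the small subunit, it was 0.20 at 24 hpf and 0.09 at 48 hpf. The rpsa gene, whose protein is also known as a laminin receptor, had 1213 FPKM in KDM5A-KO and 1021 FPKM in WT at 24 hpf, and 978 FPKM in KDM5A-KO and 1024 FPKM in WT at 48 hpf. The rps28 gene had the highest ratio among well expressed small-subunit genes at 24 hpf, with 203 FPKM in KDM5A-KO and 160 FPKM in WT, whereas at 48 hpf it had 145 FPKM in KDM5A-KO and 153 FPKM in WT. Its log2 ratio of 0.34 at 24 hpf was 0.07 after rescaling. The rescaled log2 ratios at 24 hpf were −0.16 for rps3, −0.10 for rps6, −0.22 for rps27a, −0.07 for rps7 and −0.02 for rpsa. For rps3, rps6, rps27a, rps7 and rpsa the direction at 24 hpf thus depended on the scaling.

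Of the large-subunit genes with set roles, rpl10, whose protein joins late and is needed before the subunits can meet, had 663 FPKM in KDM5A-KO and 589 FPKM in WT at 24 hpf, and 508 FPKM in KDM5A-KO and 513 FPKM in WT at 48 hpf. The rpl38 gene, known in the mouse for its part in the translation of Hox mRNAs and in the patterning of the skeleton, had 135 FPKM in KDM5A-KO and 124 FPKM in WT at 24 hpf, and 99.7 FPKM in KDM5A-KO and 115 FPKM in WT at 48 hpf. The log2 ratio of rpl23a, a protein at the exit of the tunnel, was 0.02 at 24 hpf and −0.12 at 48 hpf. The log2 ratios of rpl6 were 0.06 at 24 hpf and −0.08 at 48 hpf, and those of rpl26, a protein near the exit of the tunnel, were −0.01 and −0.18. At 24 hpf the differences of these genes were smaller in size than the shift of −0.27 that the scaling puts on the ratios. At 48 hpf that shift was −0.01, and the log2 ratios were larger in size, from −0.02 for rpl10 to −0.21 for rpl38. The FPKM ratio of rpl38 at 48 hpf was 0.864 (0.808 to 0.923). At 48 hpf, rpl29 and rpl39 were further below the core median, with log2 ratios of −0.52 and −0.39.

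Paralogs with similar sequence can exchange reads, so the values of such pairs are uncertain. The rps26l gene held most of the FPKM it shared with rps26, 72.5% in KDM5A-KO and 72.3% in WT at 24 hpf, and 72.2% in KDM5A-KO and 69.8% in WT at 48 hpf. The rps27.1 gene outweighed rps27.2, which held 8.21% of the pair's FPKM in KDM5A-KO and 7.60% in WT at 24 hpf, and 8.14% in KDM5A-KO and 8.19% in WT at 48 hpf. The splits of rps26 and rps27 thus moved little with genotype or age, unlike that of rpl22l1 and rpl22.

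Between 24 and 48 hpf the ribosomal protein genes were mostly lower at the later age in both genotypes. In KDM5A-KO the median log2 ratio of 48 to 24 hpf was −0.35, with 80 of 82 members lower. The median of all genes there was −0.09, with 10840 of 19332 lower. In WT the members' median was −0.20, with 74 of 82 lower. The median of all genes there was 0.14, with 7977 of 19332 lower. After rescaling the medians were −0.20 in KDM5A-KO and −0.30 in WT, so that the order of the genotypes turned round. The number of genes past 2-fold was small. In KDM5A-KO no member was at least 2-fold higher (background 8.79%) or at least 2-fold lower (background 4.9%) at 48 hpf. In WT 1 member was at least 2-fold higher at 48 hpf (background 17.2%), and 2 were at least 2-fold lower, rpl7l1 and rps19bp1 (background 6.17%). The core genes again lay close together, with an SD of 0.16 in KDM5A-KO and 0.23 in WT, against 1.19 and 1.40 for the other genes in the same range of levels. Of the core genes, 72 of 77 lay within 0.25 of their median in each genotype. The SD in KDM5A-KO and in WT was 0.19 and 0.27 over the mitochondrial ribosomal protein genes, and 0.30 and 0.34 over the replication genes. It was 0.61 and 0.81 over the translation genes outside the naming rule.

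A few members went against the general direction. The rplp2 gene was higher at 48 hpf than at 24 hpf in both genotypes, with a log2 ratio of 0.05 in KDM5A-KO and 0.52 in WT. In WT, rps21, rps19, rps27.2, rpl31, rpl37 and rpsa were also above 0, the largest of them rps21, at 0.13. After rescaling rps21 was the only 1 of these 6 still above 0 in WT, and 6 members in KDM5A-KO and 3 in WT were above 0 in all. The relatives outside the ribosome were the lowest. The log2 ratio of 48 to 24 hpf was −0.79 in KDM5A-KO and −1.13 in WT for rpl7l1, and −0.92 in KDM5A-KO and −1.10 in WT for rps19bp1. These comparisons use the same 4 libraries as those between the genotypes. Genes of DNA replication and cell division, a list of 14 symbols for 15 genes, were lower at 48 hpf by more than the ribosomal protein genes, with a median of −0.78 in KDM5A-KO and −1.11 in WT.

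Other parts of the translation machinery were compared with the members. Of a list of 33 translation genes outside the naming rule, 31 were in the table and expressed. Their median log2 ratio of KDM5A-KO to WT was 0.24 at 24 hpf, with 24 of 31 higher, and 0.05 at 48 hpf, with 18 of 31 higher. After rescaling the median at 24 hpf was −0.03. The eef1b2 gene, a subunit of the factor that recharges elongation factor 1, had 150 FPKM in KDM5A-KO and 227 FPKM in WT at 24 hpf, and 171 FPKM in KDM5A-KO and 244 FPKM in WT at 48 hpf. The npm1a gene encodes nucleophosmin, a protein of the nucleolus where ribosomes are built. It had 352 FPKM in KDM5A-KO and 207 FPKM in WT at 24 hpf, and 164 FPKM in KDM5A-KO and 54.4 FPKM in WT at 48 hpf. Both genes were named after their values were seen. Some ribosomal protein genes carry names or biotypes that the rule does not take. Of these, rps20, listed as a processed transcript, had 2178 FPKM in KDM5A-KO and 2088 FPKM in WT at 24 hpf, and 1456 FPKM in KDM5A-KO and 2028 FPKM in WT at 48 hpf, while RPL41 and RPL37A are written in capitals.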

How the data were processed

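RNA sequencing of 4 zebrafish libraries was analysed, 1 per group. The authors checked reads with FastQC 0.11.5, aligned them with HISAT2 2.1.0, quantified genes with StringTie 1.3.3b and called differences with DESeq 1.28.0, per the labels and the methods. They deposited FPKM values, 1 per Ensembl gene and library. Methods and labels name different library kits (NEBNext Ultra and SMARTER). The processing notes list a mouse genome build, although the genes are those of zebrafish, so no coordinates are given. No sequence is printed, because no sequence table was used here.

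Values were computed with pandas 2.3.3, numpy 2.4.6 and scipy 1.17.1 in Python 3.11.15, and plotted with matplotlib 3.10.9. Ratios were put on the log2 scale from FPKM plus 1, which understates changes of low genes. Medians and counts cover genes that reached 1 FPKM in some library. Reads were recovered as the smallest whole numbers that give all 4 values of a gene, which worked for 26812 genes, and they summed to between 98.2% and 98.5% of the library totals. The recovery was tested on simulated data. Depth, between 7441797 and 15922314 reads, limits the precision of the lowest genes only. No model was fitted and no p-value computed, because each group had 1 library.

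Genes named were the relatives and binding proteins, the 5 highest and 5 lowest ratios at 24 and at 48 hpf, the 3 most expressed genes of each subunit, and 14 genes with set roles. Genes named otherwise were chosen after their values were seen. The members, the lists and these rules were chosen with earlier results of these data known. Alternatives were a pseudocount of 0.1, no filter, a mean FPKM of at least 5, median-of-ratios rescaling, totals without rRNA locus genes (annotated as rRNA or within 15 kb of a 5.8S gene), core genes only, protein-coding genes only, a 1.5-fold threshold and the interquartile range. The share without the rRNA locus, the spread at a mean of at least 100 FPKM and the median without paralogs were added after seeing the data. All groups of samples came from the labels. Some genes are not reported here by name.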

Additional observations from a re-analysis of the deposited data

Results flagged for a closer look

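For the 82 ribosomal protein genes as a group, the median log2 ratio of KDM5A-KO to WT was above 0 at 24 hpf and below 0 at 48 hpf, a difference between the ages (48 minus 24 hpf) of −0.17. With 1 library per group the difference was not tested. After rescaling by median ratios it was 0.09, and with totals without the rRNA locus 0.01, so its direction depended on the scaling. Among the 33 named genes, 8 did the same with counting intervals on opposite sides of 1. The difference between the ages, 48 minus 24 hpf, was −0.42 for rps28, −0.34 for rpl38, −0.32 for rps27.2, −0.31 for rpsa, −0.30 for rps3, −0.14 for rpl6, −0.14 for rps2 and −0.11 for rpl5b. None of these differences was tested. The median of the differences taken gene by gene was −0.25 over all expressed genes, further below 0 than the −0.15 of the members. Of the 82 members, 73 were below 0. Rescaling by median ratios changes the sign of the 24 hpf ratio for all of the 8 named genes but rps28, and leaves 21 of 82 members with a difference below 0. The genes below 0 were not counted over all genes, so the 73 and the 21 have no background. It turns the difference of rpl5b to 0.15, of rpl6 to 0.12 and of rps2 to 0.12, and that of rps28 to −0.16.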

How the results depend on the processing

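No paired analysis was possible because the groups compared at each age had 1 library each, and for the same reason no library could be left out. A pseudocount of 0.1 and no filter on low values changed no result by more than its spread. For the median log2 ratio of KDM5A-KO to WT at 24 hpf, 0.10, rescaling by median ratios gave −0.17 and totals without the rRNA locus −0.087, both of the opposite sign, and members without a paralog gave 0.093. At 48 hpf rescaling gave −0.084. For 48 against 24 hpf in KDM5A-KO, a mean FPKM of at least 5 gave −0.36, rescaling −0.20 and core genes −0.34. In WT rescaling gave −0.30 and totals without the rRNA locus −0.38.

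Counts past 2-fold were small and moved by single genes. At 1.5-fold as deposited, 2 members were higher and 2 lower at 24 hpf, 4 lower at 48 hpf, and 1 higher and 4 lower at 48 against 24 hpf in KDM5A-KO. In that last comparison 3391 of all 19332 genes were higher and 3162 lower. The 1 higher member had a mean FPKM under 5. Among core genes the counts past 2-fold were 0 lower at 24 hpf, 0 higher and 0 lower at 48 hpf, and 0 lower with time in WT. Rescaling left 0 higher at 48 hpf, and a mean FPKM of at least 5 left 0 higher with time in WT.

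The share of summed FPKM in KDM5A-KO and WT at 24 hpf, then in KDM5A-KO and WT at 48 hpf, was 16.4%, 13.1%, 13.0% and 13.7% of protein-coding genes, 15.5%, 12.3%, 12.4% and 13.0% for core genes, and 16.3%, 17.7%, 12.9% and 13.6% without the rRNA locus. The interquartile range in place of the SD was 0.16 at 24 hpf, 0.12 with time in KDM5A-KO and 0.19 with time in WT. At a mean of at least 100 FPKM the SD with time was 0.11 in KDM5A-KO and 0.14 in WT. For the named genes, 32 of 66 values moved by more than their counting error after rescaling and 31 of 66 with totals without the rRNA locus, all at 24 hpf.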

Other observations

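The ribosomes of mitochondria have their own set of proteins, encoded in the nucleus. Their 72 genes differed from the cytosolic set between genotypes, but not in their direction between ages. The median log2 ratio of KDM5A-KO to WT was 0.41 at 24 hpf, with 72 of 72 genes higher, and 0.48 at 48 hpf, with 69 of 72 higher. Of all 19332 expressed genes, 13447 were higher at 24 hpf (median 0.19) and 8958 at 48 hpf (median −0.03). Their summed level was 2621 FPKM in KDM5A-KO and 1913 FPKM in WT at 24 hpf, and 2085 FPKM in KDM5A-KO and 1521 FPKM in WT at 48 hpf. After rescaling the medians were 0.16 and 0.47, with 60 of 72 higher at 24 hpf and 69 of 72 at 48 hpf, whereas the cytosolic set had −0.17 and −0.08. Of the 19332 genes, 9282 were then higher at 24 hpf and 8819 at 48 hpf. For 48 against 24 hpf the mitochondrial median was −0.31 in KDM5A-KO, with 70 of 72 lower, and −0.35 in WT, with 63 of 72 lower. The cytosolic set had −0.35 and −0.20. Of the 19332 genes, 10840 were lower in KDM5A-KO and 7977 in WT. After rescaling the mitochondrial medians with age were −0.16 in KDM5A-KO and −0.45 in WT, and the cytosolic ones −0.20 and −0.30.

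One gene named for a ribosomal protein lay far outside the range of the 82. RPS27L, a relative of rps27, is written in capitals and so was not a member. It had 630 FPKM in KDM5A-KO and 39.4 FPKM in WT at 24 hpf, and 366 FPKM in KDM5A-KO and 37.8 FPKM in WT at 48 hpf, log2 ratios of 3.97 and 3.24. Its relatives rps27.1 and rps27.2 had log2 ratios between −0.19 and 0.13. RPS27L was chosen after its values were seen.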
